A study of Mus musculus with 3 samples.

Results

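Cycling leukocytes were looked for among the peripheral blood mononuclear cells (PBMCs) of mice, by the RNA of 3 genes of dividing cells. Mki67 encodes the proliferation antigen Ki-67, Top2a encodes a topoisomerase that untangles replicated DNA, and Birc5 encodes survivin, a subunit of the complex that guides chromosomes through mitosis. A barcode, which stands for 1 captured droplet, was chosen by these measured counts and called cycling when it held at least 3 unique molecular identifiers (UMIs, each counting 1 captured RNA) of the 3 genes summed. Barcodes were kept for this when they had at least 200 genes, at most 7.5% mitochondrial UMIs and less than 50% UMIs of hemoglobin genes. Of 44212 barcodes, 29082 were kept, and 174 of these were cycling: 24 of young mice, 76 of aged mice and 74 of aged-GA mice.

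The libraries came from female C57BL/6 mice, 8 weeks old in the young group and 16 months old in both aged groups. Aged-GA mice received glycyrrhizic acid (GA), a saponin of licorice root, for 1 month, and the labels give no treatment for the other groups, while the methods of the study describe tail vein injections of GA and of saline for controls. Each group was deposited as 1 library, with 58894294 UMIs in 10842 barcodes from young, 82260961 in 16038 from aged and 98155671 in 17332 from aged-GA mice, and while the study describes several mice in each group, neither it nor the labels say how their blood was combined in the library. With 1 library per group no test between groups was possible, so every interval below is an exact 95% interval that covers counting error only, and age, GA and library cannot be told apart.

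Most leukocytes in blood rest between divisions. A cell that enters the cycle first switches on the replication genes of the G1/S transition through E2F transcription factors, and later the genes of G2 and mitosis through the MuvB complex with B-Myb and Foxm1. T cells divide when they meet antigen or cytokine, NK cells divide in response to cytokines, and plasmablasts are the dividing precursors of antibody-secreting plasma cells, whereas circulating neutrophils have left the cycle.

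The promoters of the counted genes and of other genes of the cycle were searched for short words known for these 2 waves. Promoters were taken from RefSeq (GRCm38.p6), from 250 bases before to 50 bases after the start, and 3 words were searched on both strands: TTTGAA, the core of the CHR element bound by MuvB, CCAAT, the box bound by NF-Y, and 4 spellings of an E2F site (TTTGGCGC, TTTCGCGC, TTTGCCGC and TTTCCCGC). Promoters of Top2a (chr11:99024140-99024439, minus strand), of the mitotic cyclin gene Ccnb2 (chr9:70421505-70421804, minus strand) and of Pclaf, which encodes a PCNA-binding factor of replication forks (chr9:65890073-65890372, plus strand), are printed as examples of the 2 kinds, with the words in capitals.
Top2a: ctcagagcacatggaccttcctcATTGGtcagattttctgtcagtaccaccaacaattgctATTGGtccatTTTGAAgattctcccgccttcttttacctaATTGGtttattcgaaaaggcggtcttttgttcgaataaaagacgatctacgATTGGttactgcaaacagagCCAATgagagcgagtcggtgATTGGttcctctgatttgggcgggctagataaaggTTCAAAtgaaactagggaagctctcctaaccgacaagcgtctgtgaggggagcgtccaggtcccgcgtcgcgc
Ccnb2: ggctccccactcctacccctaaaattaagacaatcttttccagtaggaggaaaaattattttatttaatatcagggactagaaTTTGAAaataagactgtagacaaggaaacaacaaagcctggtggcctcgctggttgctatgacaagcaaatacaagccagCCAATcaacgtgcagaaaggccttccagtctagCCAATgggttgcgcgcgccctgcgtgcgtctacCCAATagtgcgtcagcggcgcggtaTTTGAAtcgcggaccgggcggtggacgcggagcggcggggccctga
Pclaf: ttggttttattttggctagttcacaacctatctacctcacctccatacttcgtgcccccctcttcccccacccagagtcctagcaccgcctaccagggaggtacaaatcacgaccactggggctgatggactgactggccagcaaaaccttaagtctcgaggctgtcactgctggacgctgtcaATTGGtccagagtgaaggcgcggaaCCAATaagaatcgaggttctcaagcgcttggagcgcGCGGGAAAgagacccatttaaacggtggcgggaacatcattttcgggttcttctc
Top2a and Ccnb2 carry the CHR word and several CCAAT boxes, and Pclaf carries an E2F word (here as its reverse complement) beside 2 CCAAT boxes. Among the genes of 2 lists used below, 46 of 55 genes of G2/M and mitosis and 31 of 44 of G1/S and replication had a promoter in this reference. The CHR word was present in 34 of the 46 (73.9%), in 5 of the 31 (16.1%) and in 20.2% of all 27025 genes. An E2F word was present in 3 of the 46 (6.52%), in 13 of the 31 (41.9%) and in 2.61% of all genes. CCAAT was found in 80.4%, 67.7% and 41.1%, respectively. Of the 3 genes that chose the barcodes, Mki67 and Top2a held the CHR word, and the Birc5 promoter held none of these words.

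Mki67, Top2a and Birc5 chose the members, so their levels are a description. In cycling barcodes, Mki67 stood at 265, 483 and 317 UMIs per 1000000 UMIs (CPM) in young, aged and aged-GA mice. Top2a stood at 379, 490 and 323 CPM, and Birc5 at 296, 441 and 264 CPM. In all other kept barcodes the genes were unequally quiet. Birc5 stood at 0.52, 0.85 and 0.55 CPM and Mki67 at 1.02, 3.69 and 2.76 CPM, but Top2a at 9.85, 7.66 and 8.17 CPM, with a UMI in 4.41%, 3.37% and 4.05% of them. Top2a was found in few of the other barcodes with the T cell gene Cd3e (4.62%, 4.97% and 5.88%, at a median of 5373, 5159 and 6389 UMIs) and with the B cell gene Cd79a (4.45%, 2.94% and 3.16%, at 3474, 3108 and 3819 UMIs). Thinned to 2000 UMIs, its shares were 1.82%, 2.71% and 2.20% in the former and 2.43%, 1.56% and 1.52% in the latter.

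The label of a cycling cell was checked against 55 other genes of G2/M and mitosis, none of them used by the rule. Barcodes with UMIs of all 3 genes bore the label out: their median number of detected G2/M genes was 39 in young (6 barcodes), 38 in aged (39 barcodes) and 39 in aged-GA mice (29 barcodes). Barcodes that reached 3 UMIs through 1 gene did not, with medians of 5 (11 barcodes), 6 (14) and 6 (25). The former were also deeper, with medians of 18035, 15687 and 23139 UMIs against 6810, 8322 and 7874. Per depth, the G2/M list had a median of 13582, 16253 and 11702 CPM with all 3 genes and of 1543, 1645 and 1971 CPM with 1 gene. Barcodes that passed on Top2a alone numbered 9, 6 and 14, and their median was 4, 4 and 5 G2/M genes, near the 4, 3 and 4 of barcodes without any UMI of the 3 genes. The 6 barcodes that passed on Birc5 alone had a median of 15.5 G2/M genes, and the 15 that passed on Mki67 alone had 7. Thus 25% of the young, 51.3% of the aged and 39.2% of the aged-GA members held RNA of all 3 genes. Barcodes with 2 of the genes (7, 23 and 20) lay between, with medians of 16, 10 and 17 G2/M genes. For many of those with 1 gene, the word cycling stands for the rule and not for a detected mitotic program.

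At the threshold itself, 58 young, 73 aged and 95 aged-GA barcodes had exactly 2 UMIs of the 3 genes and 11, 22 and 22 had exactly 3. The 55 G2/M genes summed to 2152, 1576 and 1399 CPM in the former and to 3100, 2365 and 2207 CPM in the latter. Barcodes with 10 or more UMIs, of which there were 4, 34 and 27, reached 18071, 16254 and 11485 CPM. The highest member held 55 UMIs of the 3 genes in young mice, 92 in aged mice and 94 in the aged-GA library. Members held 36.2%, 72.6% and 61.8% of all UMIs of the 3 genes in the kept barcodes of their library, so that in young mice most of this RNA lay outside the members.

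**Figure D1:**
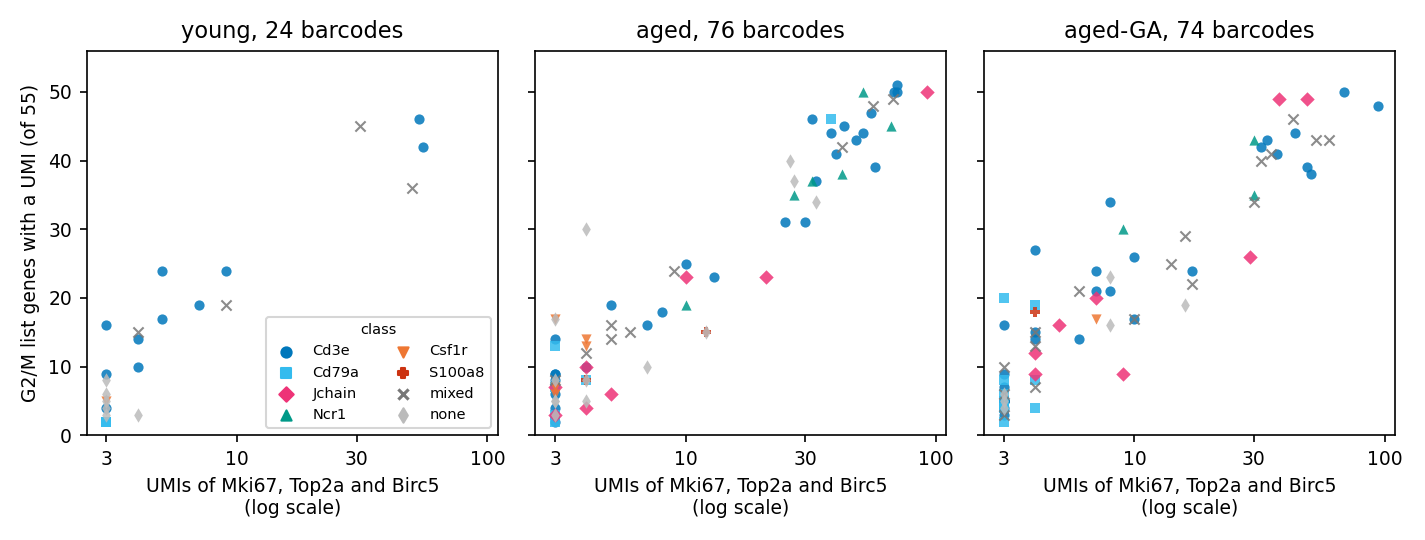
Cycling barcodes of each library, by their UMIs of Mki67, Top2a and Birc5 (x axis, log scale) and by how many of 55 other G2/M genes had a UMI (y axis), with 1 marker per barcode and its shape and color giving its lineage class; markers overlap near 3 UMIs. Barcodes with 30 or more UMIs of the 3 genes had 31 or more G2/M genes, while those at 3 UMIs had 20 or fewer.

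The share of cycling barcodes was 0.286% in young (24 of 8383 kept; 95% interval 0.184% to 0.426%), 0.798% in aged (76 of 9521; 0.629% to 0.998%) and 0.662% in aged-GA mice (74 of 11178; 0.520% to 0.830%). The young interval lay below both others, and the aged and aged-GA intervals overlapped. The aged share was 2.79-fold the young share (1.74 to 4.61), and the aged-GA share was 0.829-fold the aged one, with an interval (0.594 to 1.16) that spans no difference. Members were deeper than the rest of their library, with medians of 9414.5, 12734.5 and 14387 UMIs against 4537, 3585 and 4373.5 in other kept barcodes, and a deep barcode reaches 3 UMIs more readily. The mitochondrial share of UMIs moved with this comparison, and its part in the result was not tested. Its median was 5.06%, 1.86% and 3.79% over all barcodes, 4.78%, 2.43% and 3.37% in members and 5.12%, 2.95% and 4.41% in other kept barcodes. More than 7.5% was found in 1046, 335 and 871 barcodes, and 2, 1 and 2 of these had at least 3 UMIs of the 3 genes. When each barcode was thinned to 2000 UMIs and at least 2 UMIs of the 3 genes were asked for, the shares were 0.254% (0.157% to 0.388%), 0.530% (0.389% to 0.704%) and 0.378% (0.271% to 0.513%). Thinned to 5000 UMIs with at least 3, which left 3406, 3161 and 4609 barcodes, they were 0.294%, 1.46% and 0.716%, and the aged interval (1.07% to 1.94%) then lay above that of aged-GA mice (0.493% to 1.00%). This depth of 5000 UMIs, here and below, was chosen after the data were seen. The order of the libraries was the same in all 3 counts, but the sizes of the gaps were not. The log2 ratio of aged over young was 1.48 in the first count and 2.31 at 5000 UMIs. Without thinning it was 0.68 with at least 2 UMIs of the 3 genes and 2.52 with UMIs of all 3 genes. The intervals of young and aged-GA mice overlapped after both thinnings (0.141% to 0.539% for young at 5000 UMIs).

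**Figure D2:**
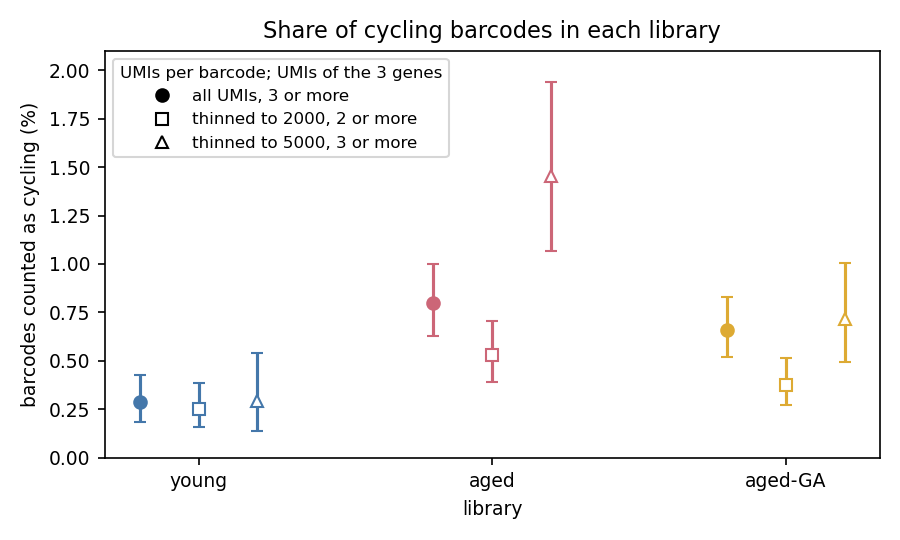
Share of kept barcodes counted as cycling (%, y axis) in each library, from all UMIs (filled circles) and after each barcode was thinned to 2000 (squares) or 5000 UMIs (triangles), with exact 95% binomial intervals. Young stood lowest in each count, and aged and aged-GA intervals overlap except at 5000 UMIs, a depth chosen after the data were seen.

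Each member was placed by 6 genes: Cd3e (T cell receptor complex), Cd79a (B cell receptor), Jchain (the chain that joins IgA and IgM, marking plasma cells), Ncr1 (the NK cell receptor NKp46), Csf1r (the receptor of monocytes for their growth factor) and S100a8 (calprotectin of neutrophils and monocytes). At least 2 UMIs of Cd3e, Cd79a, Ncr1 or Csf1r, or 10 of Jchain or S100a8, were required, and Jchain was given precedence over Cd79a. Cd3e barcodes were the largest group in each library, with 11 of 24 members in young (45.8%, 25.6% to 67.2%), 27 of 76 in aged (35.5%, 24.9% to 47.3%) and 28 of 74 in aged-GA mice (37.8%, 26.8% to 49.9%). Jchain barcodes were 0, 8 and 8, Ncr1 barcodes 0, 6 and 3, Cd79a barcodes 2, 6 and 10, Csf1r barcodes 1, 5 and 1, and S100a8 barcodes 0, 2 and 1. With only 24 young members, a count of 0 there allows a share of up to 12.5% of them by the limit of 3 counts and 14.2% by the exact interval. Genes of more than 1 class met the minimum in 4, 9 and 17 members, and no class was met in 6, 13 and 6.

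Members without a class held T cell RNA at levels above those of B cells. The 12 T cell markers summed to 5132, 5219 and 9411 CPM in them, against 797, 549 and 639 CPM in other Cd79a barcodes. Trbc2, a constant gene of the T cell receptor, was detected in 6 of 6 such barcodes of young mice, in 11 of 13 from aged mice and in 6 of 6 from the aged-GA library, and in 10.4%, 7.32% and 12.7% of other Cd79a barcodes, at medians of 7184.5, 5670 and 6266 against 3474, 3108 and 3819 UMIs. When classes were set by lists of markers instead of single genes, T-like barcodes made up 79.2%, 60.5% and 60.8% of the members. Most mixed members combined Cd3e with Cd79a (3, 5 and 9 barcodes, of which a doublet caller marked 2, 1 and 2), and 4 aged-GA members combined Cd3e with Jchain, out of 10 such barcodes among all kept ones. The caller marked 5 of the 24 young members (20.8%), 1 of the 76 aged members (1.32%) and 3 of the 74 aged-GA members (4.05%), against 5.67%, 3.95% and 4.57% of kept barcodes.

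Most barcodes with all 3 genes had many G2/M genes, although the lowest had 10 in young, 4 in aged mice and 14 in the aged-GA library. Among them, Cd3e barcodes numbered 4, 16 and 14 (young, aged and aged-GA mice). Jchain barcodes numbered 0, 4 and 4, and Ncr1 barcodes 0, 5 and 3. In contrast, Cd79a barcodes numbered 0, 1 and 0, Csf1r barcodes 0, 1 and 0 and S100a8 barcodes 0, 2 and 0. Mixed barcodes with all 3 genes numbered 2, 4 and 8, and those without a class 0, 6 and 0.

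**Figure D3:**
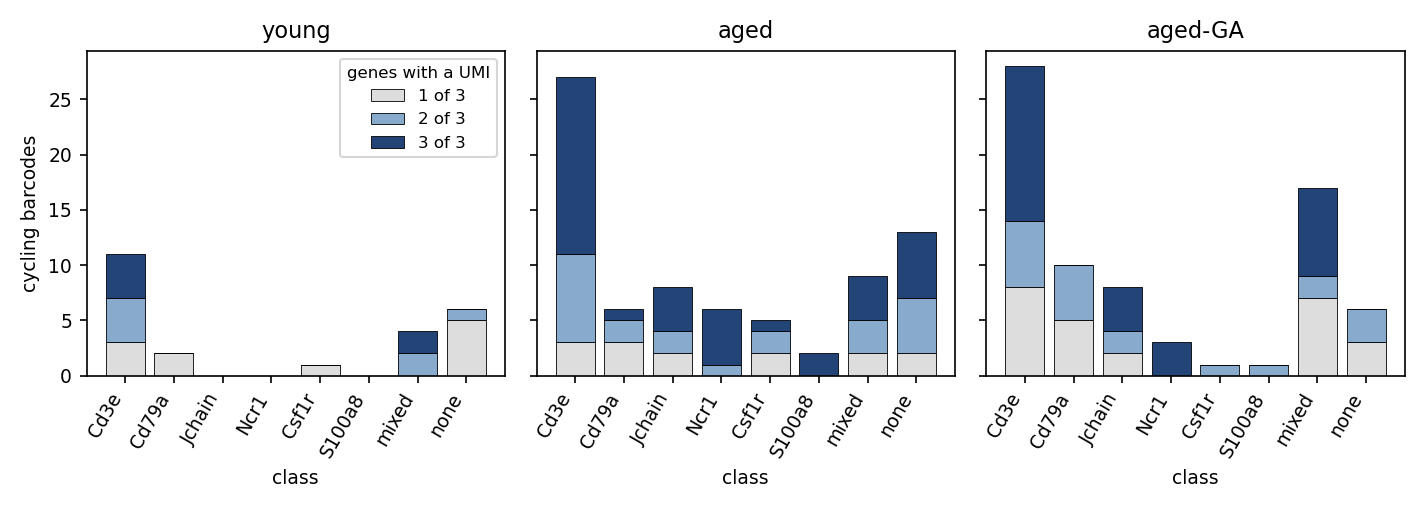
Number of cycling barcodes (y axis) in each lineage class (x axis) and library, with shades for how many of Mki67, Top2a and Birc5 had a UMI. Cd3e is the highest bar in each library, and the darkest shade (all 3 genes) makes up 16 of 27 Cd3e barcodes in aged and 14 of 28 in aged-GA mice but 1 of 6 and 0 of 10 Cd79a barcodes.

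The classes differ in size between libraries, so the cycling share was also taken within each class. Of Cd3e barcodes, 11 of 2542 were cycling in young (0.433%, 0.216% to 0.773%), 27 of 1074 in aged (2.51%, 1.66% to 3.64%) and 28 of 2171 in aged-GA mice (1.29%, 0.859% to 1.86%). The young interval lay apart from both others, and the aged and aged-GA intervals overlapped. Cd3e barcodes made up 30.3%, 11.3% and 19.4% of all kept barcodes, so the aged library had the fewest of them and the highest cycling share among them. No class was met in 35.4%, 18.3% and 14.9% of kept barcodes, and classes were called on all UMIs also for the thinned counts. After thinning to 2000 UMIs the cycling shares of Cd3e barcodes were 0.276% (0.111% to 0.568%), 1.70% (1.01% to 2.67%) and 0.878% (0.529% to 1.37%). After thinning to 5000 UMIs, 21 of 578 aged (3.63%, 2.26% to 5.50%) and 14 of 1559 aged-GA Cd3e barcodes (0.898%, 0.492% to 1.5%) were cycling, and these 2 intervals did not overlap. The young share was then 4 of 1545 (0.259%, 0.0706% to 0.662%). After both thinnings the young interval overlapped that of aged-GA mice and lay below that of aged mice.

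Jchain barcodes had the highest cycling share of the classes in both aged libraries, 8 of 46 in aged (17.4%, 7.82% to 31.4%) and 8 of 40 in aged-GA mice (20%, 9.05% to 35.6%), and 0 of 4 in young mice, too few to compare. They were also the deepest class, with a median of 16377.5 UMIs in aged mice and 22734 in the aged-GA library. After thinning to 2000 UMIs 2 of 45 (4.44%) and 3 of 40 (7.5%) passed. Ncr1 barcodes were cycling in 6 of 166 (3.61%, 1.34% to 7.70%) in aged, 3 of 192 (1.56%, 0.323% to 4.50%) in aged-GA and 0 of 179 in young mice, where a count of 0 allows a share of up to 1.68% by the limit of 3 counts and 2.04% by the exact interval. Their depth was ordinary (medians of 3326, 3416 and 3662.5 UMIs in young, aged and aged-GA mice), and thinning to 2000 UMIs left 5 of 160 (3.13%) and 2 of 189 (1.06%). Thinned to 5000 UMIs, the order was another in aged mice, with 6 of 36 Ncr1 barcodes (16.7%) and 4 of 45 Jchain barcodes (8.89%), while in aged-GA mice 3 of 38 (7.89%) and 4 of 40 passed. Cd79a barcodes had a low share, at 0.0824%, 0.142% and 0.177%, with overlapping intervals in all 3 libraries. Thinned to 2000 UMIs, the order of the libraries was another, at 0.210%, 0.122% and 0.0894%, again with overlapping intervals. Csf1r barcodes were cycling in 1 of 42 in young, 5 of 964 in aged (0.519%, 0.169% to 1.21%) and 1 of 252 in aged-GA mice (0.397%), and S100a8 barcodes in 0 of 15, 2 of 787 (0.254%) and 1 of 497 (0.201%). After thinning to 2000 UMIs, 1 of 39, 1 of 953 and 0 of 249 Csf1r barcodes passed, and 0 of 14, 0 of 519 and 0 of 375 S100a8 barcodes.

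**Figure D4:**
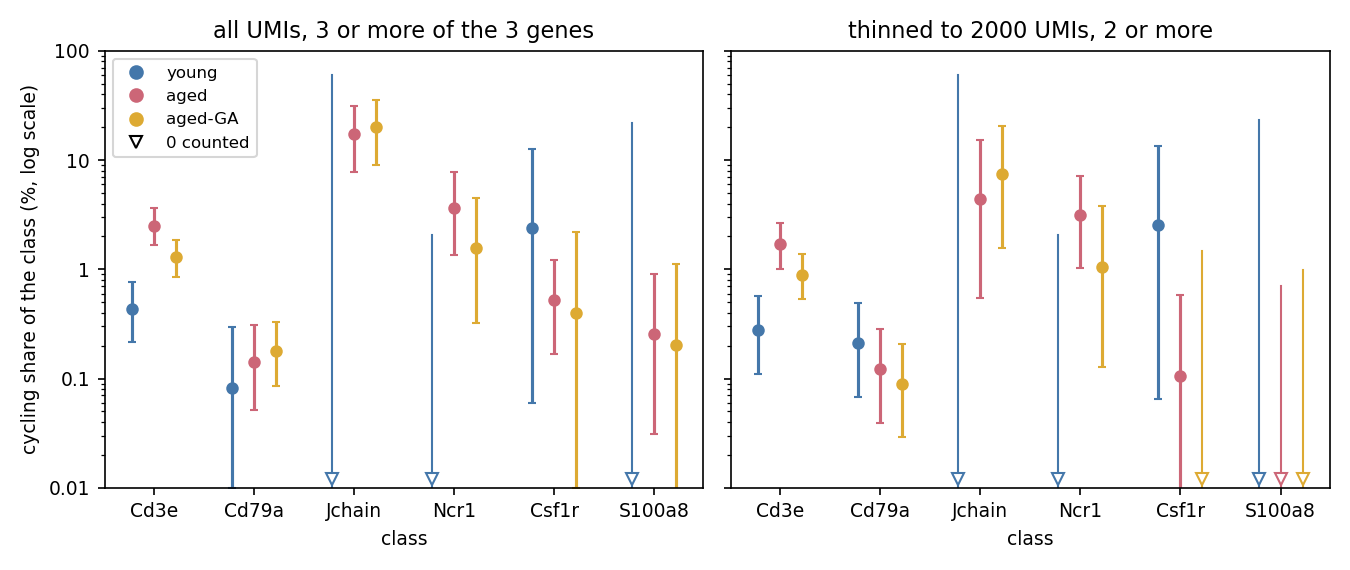
Cycling share of each lineage class (%, log scale) in each library, from all UMIs (left) and thinned to 2000 UMIs (right), with exact 95% binomial intervals; open triangles mark a count of 0, and interval ends below 0.01% are not drawn. Jchain barcodes stand highest in both aged libraries and Cd79a barcodes near 0.1%, and in Cd3e barcodes the young share lies below the aged one in both panels.

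Cycling Cd3e barcodes carried both waves of the cycle. The 44 genes of G1/S and replication summed to 4896, 5689 and 5656 CPM in cycling Cd3e barcodes of young, aged and aged-GA mice, against 790, 895 and 834 CPM in other Cd3e barcodes. The 55 genes of G2/M summed to 9975, 15337 and 10513 CPM, against 1839, 1479 and 1456 CPM. The median number of G2/M genes per barcode was 17, 31 and 21, with extremes of 4 and 46 in young, 2 and 51 in aged and 3 and 50 in aged-GA mice. The replication sum was similar in the 2 aged libraries, and the mitotic sum was higher in aged mice. All 12 T cell markers were detected in cycling barcodes of each library.

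RNA of Cd4 and of Cd8a or Cd8b1, the coreceptor genes that part helper from killer T cells, was found in them. In young mice 4 of 11 cycling Cd3e barcodes had UMIs of Cd4 without Cd8a or Cd8b1 and 6 of Cd8a or Cd8b1 without Cd4. The numbers were 9 and 12 of 27 in aged mice and 9 and 17 of 28 in aged-GA mice, and 3 aged barcodes had both. In other Cd3e barcodes 18.5%, 22.1% and 19.8% had Cd4 only and 43.7%, 48.0% and 55.3% Cd8a or Cd8b1 only. In other Cd79a barcodes, which should lack them, Cd4 was found in 2.1%, 1.28% and 1.46% and Cd8b1 in 2.56%, 1.89% and 2.84%, at medians of 3474, 3108 and 3819 UMIs. Foxp3, the factor that defines regulatory T cells, was found in 2 of 11 (18.2%, 2.28% to 51.8%), 4 of 27 (14.8%, 4.19% to 33.7%) and 1 of 28 (3.57%, 0.0904% to 18.3%) cycling Cd3e barcodes, with wide and overlapping intervals. It was found in 1.15%, 3.63% and 1.45% of other Cd3e barcodes, which were shallower (median of 5373, 5159 and 6389 UMIs against 17162, 11950 and 13147.5). In other Cd79a barcodes, which should lack it, Foxp3 was found in 0.206%, 0.118% and 0.195%. Trdc, of gamma delta T cells, was found in 2, 1 and 0 cycling Cd3e barcodes.

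Cycling and other Cd3e barcodes were compared gene by gene in aged and aged-GA mice, where at least 20 such members were present. The rule itself sorted these barcodes, so the differences describe them. With a pseudocount of 10 CPM, 336 of 3105 genes were at least 2-fold higher (10.8%) and 135 lower (4.35%) in aged mice, and 282 of 2976 were higher (9.48%) and 57 lower (1.92%) in aged-GA mice. Past this size in both libraries were 231 genes. Of the replication list 27 of 30 genes measured were higher in aged and 28 of 28 in aged-GA mice, of the G2/M list 30 of 31 and 27 of 28, and of the histone list 9 of 9 in both. The replication list had 44 genes and the G2/M list 55, and the rest were not measured. Genes quiet in other barcodes were measured only when high in cycling ones, so these tallies describe the members and test nothing. Pclaf stood at 760 against 2.55 CPM in aged (log2 ratio 5.94) and at 617 against 1.23 CPM in aged-GA mice (5.80). Stmn1, whose product takes microtubules apart, stood at 1562 against 51.5 CPM (4.68) and at 1289 against 48.5 CPM (4.47). Ube2c, which encodes the ubiquitin-conjugating enzyme of the anaphase-promoting complex, stood at 578 against 11.7 CPM (4.76) and 198 against 6.64 CPM (3.65). Nusap1, of the mitotic spindle, and the histone gene Hist1h1b had log2 ratios of a similar size (4.84 and 5.95 in aged, 3.86 and 5.37 in aged-GA mice). Counts of single histone genes are uncertain, since their copies are nearly identical.

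Fewer genes were lower in cycling Cd3e barcodes, and some are known from resting T cells. Il7r, the receptor for the survival cytokine IL-7, stood at 448, 118 and 273 CPM in young, aged and aged-GA cycling barcodes, against 953, 577 and 718 CPM in the others. Btg1, an antiproliferative gene, stood at 957, 400 and 604 against 1948, 1481 and 1704 CPM. Klf2, a factor of T cell quiescence, stood at 785, 587 and 1045 against 1675, 1423 and 1842 CPM. Each of the 3 was lower in cycling than in other barcodes of all 3 libraries, and each was lowest in the aged cycling barcodes. Igfbp4, a gene of naive T cells, stood at 11.5 against 283 CPM in aged (log2 ratio -3.77) and 72.5 against 192 CPM in aged-GA mice (-1.29). Of the list of 17 quiescence genes and inhibitors, 3 were higher and 3 lower of 14 measured in aged, and 0 and 2 of 10 in aged-GA mice. Of 12 genes of stress at dissociation, 0 were higher and 3 lower of 8 measured in aged, and 0 and 2 of 8 in aged-GA mice.

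Aged and aged-GA cycling Cd3e barcodes were then compared with each other. Of 2119 genes measured, 21 were at least 2-fold higher in aged-GA mice (0.991%) and 24 lower (1.13%). Dapl1, a gene known from naive and memory CD8 T cells, was absent from the 27 aged barcodes and stood at 174 CPM in 9 of 28 aged-GA barcodes, at least 20.2-fold higher against a floor of 3 UMIs over the aged barcodes. Ccr7, the receptor that leads T cells to lymph nodes, stood at 54.7 CPM in aged and 235 in aged-GA mice (log2 ratio 1.92), and was detected in 7 of 27 and 18 of 28 barcodes. It stood at 202 CPM in the young cycling barcodes. Satb1, a chromatin organizer of T cells, stood at 97.8 and 271 CPM (1.38), with UMIs in 10 of 27 and 21 of 28, and Bcl2, an inhibitor of apoptosis, at 112 and 312 CPM (1.40), with UMIs in 12 and 21. With less than 10% hemoglobin UMIs the log2 ratio of Satb1 was 0.93, under 2-fold. Ly6c2, found on memory CD8 T cells as well as on monocytes and nearly identical to its neighbor Ly6c1, stood at 92.1 and 377 CPM (1.92). Smap2 (log2 ratio 1.53), Ctla2a (1.36) and Avl9 (1.27) were also among the 10 largest differences, and 61.0% of the UMIs of Furin (1.49), a protease that activates cytokines, came from 1 barcode. Restricted to barcodes with all 3 genes of the rule, the log2 ratio of Avl9 was 0.91, under 2-fold.

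The genes lower in aged-GA members included some of mitosis. Ube2c stood at 578 CPM in aged and 198 in aged-GA mice (log2 ratio -1.5), Cdc25b, the phosphatase that starts mitosis, at 207 and 72.5 CPM (-1.40), and Chfr, a checkpoint gene of early mitosis, at 106 and 36.3 CPM (-1.33). Of 35 measured genes of the G2/M list, 0 were 2-fold higher and 5 lower (median log2 ratio -0.62, against -0.07 over all genes measured). Of 27 replication genes, 0 were higher and 0 lower (median 0.03), and of 9 histone genes 0 were higher and 3 lower (-0.63). Hist1h2ap stood at 1698 CPM in aged members and at 590 CPM in aged-GA members (-1.51), and Hist1h2ae at 1059 and 203 CPM (-2.33). Gzma, a granule protease of killer lymphocytes, stood at 1868 CPM in aged and 464 in aged-GA mice (-1.99), where it rested on 10 of 27 and 6 of 28 barcodes, and at 18.4 CPM in young mice. Ikzf2, which encodes Helios, a factor of regulatory and other T cell subsets, stood at 239 and 70.1 CPM (-1.63). The list of T cell state genes moved both ways, with 2 higher and 2 lower of 19 measured. Restricted to barcodes with all 3 genes, the median of the G2/M list was -0.71, and with less than 10% hemoglobin UMIs it was -0.62.

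**Figure D5:**
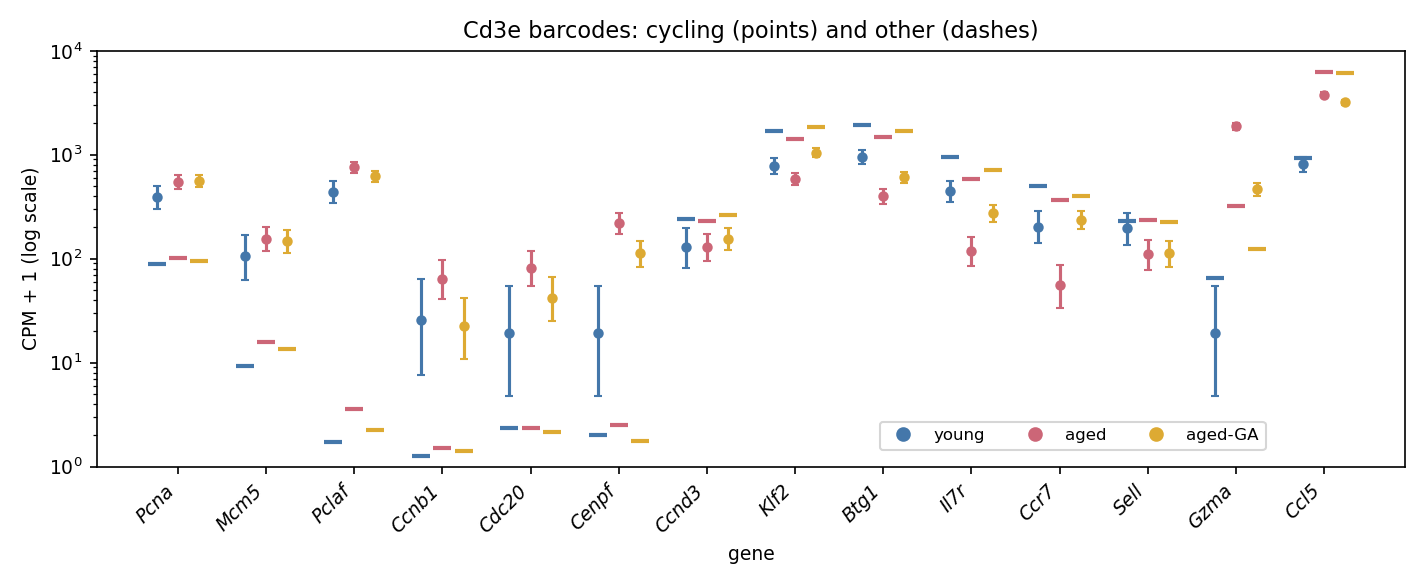
Level of 14 genes, chosen after their values were seen, in cycling Cd3e barcodes (points, exact 95% Poisson intervals) and in other Cd3e barcodes (dashes) of each library, as CPM of summed UMIs plus 1 on a log axis. The replication and mitotic genes on the left lie above the dashes, and Klf2, Btg1, Il7r and Ccr7 lie below them, lowest in aged mice.

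Cycling Jchain barcodes had the RNA of antibody-secreting cells, with much IgA. Igha, the constant gene of IgA, stood at 40288 CPM in the 8 aged and 40249 CPM in the 8 aged-GA barcodes, with 424 to 1082 UMIs per barcode in aged and 590 to 2425 in aged-GA mice. Ighm, of IgM, stood at 30.5 and 155 CPM, and Ighg1 at 0 in both. Jchain itself, which chose the class, stood at 13749 and 17119 CPM, with 116 to 455 and 214 to 847 UMIs per barcode. The lambda light chain gene Iglc1 stood at 1703 CPM in aged and at 34878 CPM in aged-GA members, and 1 aged-GA barcode held 4622 of its 7422 UMIs. Mzb1, a chaperone of antibody assembly, stood at 4760 and 2632 CPM, Xbp1, which drives the secretory apparatus, at 781 and 832 CPM, and Prdm1, which encodes Blimp-1, the master factor of plasma cells, at 153 and 249 CPM. In other Jchain barcodes Prdm1 stood at 65.2 and 123 CPM and Igha at 53342 and 61033 CPM.

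These barcodes were uneven in their mitotic RNA. In aged mice their UMIs of the 3 genes ranged from 3 to 92 with a median of 4.5, and their G2/M genes from 3 to 50 with a median of 8.5. In aged-GA mice the ranges were 4 to 49 (median 8) and 9 to 49 (median 18). The most mitotic one, in aged mice, had 42 UMIs of Mki67, 29 of Top2a and 21 of Birc5, while others passed on Mki67 alone. The G2/M list summed to 4577 and 5663 CPM, against 679 and 662 CPM in other Jchain barcodes, and the replication list to 3759 and 2270 against 429 and 395 CPM. Of the other Jchain barcodes, 20 of 38 in aged (52.6%) and 17 of 32 in aged-GA mice (53.1%) also had a UMI of Mki67, at medians of 16294 and 21412.5 UMIs, but Birc5 was found in 2.63% and 3.13% of them. Among other Cd79a barcodes, at 3108 and 3819 UMIs, Mki67 was found in 0.616% and 0.657%. After thinning to 2000 UMIs the Mki67 shares of Jchain barcodes were 10.8% and 3.13%.

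Cycling Ncr1 barcodes were few and strongly mitotic. Their G2/M genes numbered 19 to 50 in aged (median 37.5) and 30 to 43 in aged-GA mice (median 35), and the list summed to 17418 and 16540 CPM, against 1691 and 1833 CPM in other Ncr1 barcodes. Their UMIs of the 3 genes were 10 to 66 in aged and 9, 30 and 30 in aged-GA mice. Thus 8 of these 9 barcodes held all 3 genes, unlike the Cd79a class. The 10 NK markers summed to 21247 CPM (20273 to 22255) in aged and 17211 CPM (16017 to 18471) in aged-GA cycling barcodes, against 22263 and 22549 CPM in the others, mostly from Gzma. Gzma stood at 16681 and 13366 CPM against 14064 and 13752 CPM in other Ncr1 barcodes. Prf1, which encodes perforin, stood at 357 (241 to 509) and 268 CPM (139 to 469), below the 891 (818 to 968) and 1116 CPM (1042 to 1194) of other Ncr1 barcodes. Klre1, a lectin-like receptor, stood at 904 (712 to 1131) against 911 CPM in aged and 648 against 932 CPM in aged-GA mice. Quiescence genes summed to 1819 and 2615 CPM, against 5350 and 6795 CPM.

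Most cycling Cd79a barcodes had few G2/M genes, although in both aged libraries the lists summed above those of other Cd79a barcodes. They had a median of 2, 7.5 and 5.5 G2/M genes (young, aged and aged-GA mice), and the only one with all 3 genes, in aged mice, had 9 UMIs of Mki67, 20 of Top2a and 9 of Birc5 and 46 G2/M genes. It held 5 UMIs of Cd79a but also 3 of Cd8a and 8 of Cd8b1. The G2/M list summed to 1376 (753 to 2309), 5777 (5223 to 6373) and 2377 CPM (2107 to 2672), against 1656, 1112 and 1176 CPM in other Cd79a barcodes, and in aged mice 302 of its 398 UMIs came from that barcode. The replication list summed to 590 (216 to 1284), 2003 (1683 to 2366) and 1624 CPM (1403 to 1871), against 784, 775 and 774 CPM. So the young sums did not stand apart from the others, while those of both aged libraries were higher. Summed, the aged ones held T cell RNA, with T cell markers at 2685 CPM (2312 to 3101) against 549 CPM in other Cd79a barcodes, Ccl5, a chemokine of killer cells, at 3643 CPM (250 of 251 UMIs in 1 barcode), and B cell markers at 6140 against 11536 CPM. In aged-GA mice the T cell markers stood at 787 (635 to 964) against 639 CPM and the B cell markers at 10219 against 11490 CPM. Ccl5 stood at 1227 against 286 CPM there (139 of 145 UMIs in 1 barcode), and the T cell state genes, Ccl5 among them, summed to 2377 (2107 to 2672) against 1438 CPM. In the 2 young barcodes, of which the caller marked 1 as a doublet, the T cell markers summed to 1966 (1201 to 3037) against 797 CPM. The B cell markers stood at 7571 against 10652 CPM there. So the class cannot be taken as B cells alone in any of the libraries, although in aged-GA mice this rests on Ccl5, with most of its UMIs in 1 barcode. The interval of the T cell markers there held the 639 CPM of other Cd79a barcodes. The 5 aged Csf1r barcodes had 6 to 17 G2/M genes and 11 to 60 UMIs of Ly6c2, a gene of classical monocytes. Their replication list summed to 462 CPM (338 to 616, from 46 UMIs), with the 456 CPM of other Csf1r barcodes inside that interval, while the G2/M list summed to 2651 (2341 to 2991) against 1331 CPM. In the same 5 barcodes B cell markers summed to 592 (451 to 764) against 135 CPM, but 1 gene of that list, Ly6d, gave 442 of the 592 CPM. Dendritic cell markers summed to 874 (700 to 1078) against 382 CPM, of which the gene Bst2 gave 693 and 312 CPM. Megakaryocyte or platelet markers summed to 221 (138 to 334) against 75.3 CPM. Monocyte markers (23817 against 25514 CPM) and those of T cells, NK cells and neutrophils summed lower. The aged-GA Csf1r barcode had 17 G2/M genes and 20 UMIs of Ly6c2, and the young one passed on 3 UMIs of Top2a and had none of Ly6c2. Of the 2 aged S100a8 barcodes, 1 held 2348 S100a8 UMIs with 344 of Camp and 458 of Ngp, secondary granule genes of maturing neutrophils, and had 8 G2/M genes. The other had 52 S100a8 UMIs and 15 G2/M genes, and the aged-GA one had 45 and 18.

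Cells that divide in the marrow were looked for by their markers. Kit, Cd34, Gata2 and Mecom, genes of stem and progenitor cells, were at 0 in the members of every library, while Flt3, Hlf, Meis1 and Adgrg1 had 14 UMIs together in aged and 18 in aged-GA members, so that the list of 8 genes summed to 0, 13.1 and 14.1 CPM (3.01, 28.7 and 11.7 CPM in other barcodes). Of 8 genes of granulocyte precursors, Mpo, Fcnb and Ms4a3 were at 0 in the members of every library. The other 5 were detected in aged members: Chil3 at 283 CPM, the granule protease genes Prtn3 at 39.2, Elane at 11.2 and Ctsg at 5.60 CPM, and Cebpe, a factor of granule formation, at 5.60 CPM. Prtn3 was found in 8 of the 76 aged members (10.5%) and in 6.81% of other aged barcodes, which were shallower (median of 3585 UMIs against 12734.5). The list summed to 3.45, 345 and 139 CPM in members and to 10.2, 522 and 89.3 CPM in other barcodes. The same 5 genes were detected in the aged cycling Csf1r barcodes, where the list summed to 1165 CPM (962 to 1397) against 1736 CPM in other Csf1r barcodes, and in the 2 aged cycling S100a8 barcodes, where it summed to 4336 CPM (3570 to 5217) against 854 CPM. Chil3 gave most of each sum, with 884 against 1595 CPM in the Csf1r barcodes and 3368 against 764 CPM in the S100a8 barcodes. The erythroid list summed to 51.7, 120 and 101 CPM, against 79.1, 88.5 and 102 CPM in other barcodes, with Epor and Car1 at 0 and with Alas2, of heme synthesis, highest in both aged libraries (61.6 and 45.3 CPM). Hemoglobin genes exceeded 10% of the UMIs in 0, 6 and 4 members.

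The members of whole libraries were compared last, where differences also reflect which lineages each library held. Of 2987 genes, 247 were at least 2-fold higher in aged than in young members (8.27%) and 76 lower (2.54%). Of the lists, 5 of 5 measured plasma cell markers, 12 of 17 genes of the secretory apparatus, 7 of 7 neutrophil markers, 4 of 7 monocyte markers and 3 of 4 NK markers were higher in aged mice, and none of these was lower. A gene at 0 in young members was measured only through its aged level, so its direction was fixed. This held for 2 of these plasma cell markers, 2 secretory genes, 6 neutrophil markers and 1 monocyte marker. The counts therefore describe the members and test nothing. Jchain stood at 2107 CPM in aged members, with UMIs in 11 of 76, and was absent in young members, at least 204-fold higher against a floor of 3 UMIs. S100a9, the partner of S100a8, stood at 1753 CPM against 0 (at least 170-fold), S100a8 at 2527 against 6.89 CPM, and Ngp and Camp were at least 41.8-fold and 31.3-fold higher, but 1 barcode held 83.8%, 86.8%, 98.9% and 99.4% of their UMIs. The neutrophil markers also summed to 705, 16005 and 8087 CPM in the other barcodes of young, aged and aged-GA mice, and S100a8 UMIs were found in 1.26%, 29.3% and 26.5% of other Cd3e barcodes (median of 5373, 5159 and 6389 UMIs), so that neutrophil RNA in barcodes of other classes moved with the same comparison, and its part in the result was not tested. Lyz2, the lysozyme of myeloid cells, stood at 3193 against 141 CPM (log2 ratio 4.40), Ifitm3, an antiviral membrane protein, at 965 against 34.5 CPM (4.45) and Mzb1 at 784 against 27.6 CPM (4.40).

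Of the list of T cell state genes, 5 were higher and 7 lower in aged than in young members, of 22 measured (median log2 ratio -0.25). The 5 higher ones were the granule genes Gzmb at 168 against 55.1 CPM (1.45), Gzmk at 74.7 against 17.2 CPM (1.64), Prf1 at 51.4 against 10.3 CPM (1.59) and Gzma at 2249 against 1041 CPM (1.10), and the integrin gene Itgb1 at 431 against 200 CPM (1.07). A single barcode held 97.7% of the Gzma UMIs of young members. The 7 lower ones were Il7r at 76.6 against 458 CPM (-2.44), Ccr7 at 44.8 against 255 CPM (-2.27), Lef1, a factor of naive T cells, at 71.9 against 255 CPM (-1.69), Tcf7, another such factor, at 122 against 289 CPM (-1.18), the costimulator gene Icos (-1.23), Cd8b1 (-1.04) and Trdc (-3.15). Outside this list, Satb1 stood at 62.6 against 386 CPM (-2.45) and Dapl1 at 0.93 against 176 CPM (-4.09). The 12 T cell markers summed to 5983, 4092 and 3823 CPM in young, aged and aged-GA members, none of them past 2-fold between aged and young. Replication genes were neither higher nor lower (0 and 0 of 26, median 0.06, against 0.12 over all genes), and of G2/M genes 7 were higher and 0 lower of 33 (median 0.44).

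Between aged-GA and aged members, 29 of 2968 genes were at least 2-fold higher in aged-GA mice (0.977%) and 48 lower (1.62%). B cell markers were higher for 4 and lower for 0 of 8 measured, with Cd79a at 660 in aged-GA against 186 CPM in aged members (log2 ratio 1.77). Of the T cell state genes, 1 was higher and 2 lower of 19 measured (median log2 ratio -0.17), with Ccr7 higher, at 164 against 44.8 CPM (1.67), and Gzma lower, at 814 against 2249 CPM (-1.45), as was Gzmb, a granzyme, at 39.8 against 168 CPM (-1.84). Outside this list, Dapl1 stood at 64.8 against 0.93 CPM (2.77) and Satb1 at 170 against 62.6 CPM (1.31). Monocyte markers were higher for 0 and lower for 5 of 7, with Lyz2 at 833 against 3193 CPM (-1.93) and F13a1, a coagulation factor of monocytes, at 19.5 against 127 CPM (-2.21). NK markers, with Gzma among them, were higher for 0 and lower for 2 of 4. The make-up of the members moved with these values, with 10 and 6 of them in the Cd79a class, 1 and 5 in the Csf1r class and 3 and 6 in the Ncr1 class, and a change of composition and a change within a class cannot be told apart in these sums. Of G2/M genes 0 were higher and 1 lower of 33 (median -0.39, against -0.04 over all genes), and of replication genes 0 and 0 of 28.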

How the data were processed

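Single PBMCs were captured in droplets and sequenced, giving 1 library for each group. The authors used Cell Ranger and deposited unnormalized UMI counts of each barcode for 32285 genes. Version 5.0.0 stands in the matrix headers, mm10 is named in the submitters' processing notes, and the annotation is not given in the sources used here. Barcodes were filtered and members chosen as stated above, with no clustering. The members and all lists were chosen with earlier results of these data known, and are no independent evidence. Doublets were called per library with Scrublet in Scanpy 1.11.5 and kept. The libraries shared 52, 50 and 62 barcodes in the 3 pairs, and none was cycling in both.

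CPM are of UMIs summed over barcodes. Genes were compared with a pseudocount of 10 CPM when they had at least 50 UMIs over both sides and 50 CPM in one. A gene that reached 50 CPM on 1 side only entered through the side where it was higher. Counts of list genes past 2-fold are therefore descriptions. The 10 largest differences each way (for cycling over other barcodes the 10 largest up and 5 down, past 1 on the log2 scale in both libraries) and genes of the lists could be named, without hemoglobin, mitochondrial, ribosomal, immunoglobulin and T cell receptor segment genes. Other genes and barcodes singled out were chosen after their values were seen. Intervals were binomial (Clopper-Pearson) or Poisson, and those of ratios of shares came from the binomial split of their counts, with SciPy 1.17.1 and NumPy 2.4.6 in Python 3.11.15. Scripts were tested on simulated data. A gene among those that could be named is not reported here. Thresholds, filters, depth, doublets, class rules, the pseudocount and the averaging were varied.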

Additional observations from a re-analysis of the deposited data

Results flagged for a closer look

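Outside the kept barcodes, 3 young, 2 aged and 5 aged-GA barcodes had at least 3 UMIs of Mki67, Top2a and Birc5, in data that the comparisons did not use. The 5 of aged-GA mice held 9, 3, 3, 3 and 7 such UMIs. Hemoglobin genes took 89.6%, 50.2% and 67.4% of the UMIs in 3 of them, and mitochondrial genes took 27.8% and 8.81% in the other 2. The aged barcode with 8 UMIs of the 3 genes had 58.1% hemoglobin UMIs and 25 G2/M genes.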

How the results depend on the processing

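With 1 library per group, no replicate could be left out, and library preparation cannot be told apart from age or GA. No paired analysis was possible because each group had 1 library. Low counts limit most classes. Of 219 alternatives of the main values, 174 stayed within the main interval or within 1.5 times the main count and 45 did not. The 3 log2 ratios of cycling shares and the 90 of named genes kept their sign in all alternatives run, but the median ratio of the replication list between aged-GA and aged Cd3e members (0.03) was -0.13 with the mean of CPM per barcode and -0.04 with less than 10% hemoglobin UMIs. The log2 ratio of the cycling share ranged from 0.68 to 2.52 for aged over young, from -1.02 to -0.05 for aged-GA over aged and from 0.57 to 1.86 for aged-GA over young.

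Values are given for young, aged and aged-GA mice in this order. With at least 2 UMIs of the 3 genes the cycling shares were 0.978%, 1.56% and 1.51%, the shares of Cd3e barcodes 1.26%, 3.91% and 2.90%, those of Jchain barcodes 39.1% and 42.5% in aged and aged-GA mice, and the log2 ratio of aged over young 0.68. With at least 5 UMIs the cycling shares were 0.107%, 0.452% and 0.358%. Thinned to 2000 UMIs, the aged and aged-GA shares were 0.530% and 0.378% and those of Jchain barcodes 4.44% and 7.5%. Classes by marker lists gave T-like shares of members of 79.2%, 60.5% and 60.8%.

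The settings of this paragraph were chosen after seeing the data. Thinned to 5000 UMIs, the aged share was 1.46%, and the log2 ratios were 2.31 for aged over young and -1.02 for aged-GA over aged. With UMIs of at least 2 of the 3 genes the young and aged-GA shares were 0.155% and 0.438%. With all 3 genes the cycling shares were 0.0716%, 0.410% and 0.259%, the shares of Cd3e barcodes 0.157%, 1.49% and 0.645%, and the log2 ratio of aged over young 2.52, and 210 genes in aged and 126 in aged-GA mice were lower in cycling than in other Cd3e barcodes.

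Asking for 20 UMIs without a minimum of CPM admitted more genes, with 628 higher and 132 lower in aged than in young members, 58 and 104 in aged-GA than in aged members, and 87 and 103 in aged-GA than in aged Cd3e members. It gave 517 higher and 381 lower in cycling than in other Cd3e barcodes of aged mice, and 484 and 166 in aged-GA mice. With the mean of CPM per barcode, 46 genes were lower in aged-GA than in aged Cd3e members, and with a pseudocount of 1 CPM 87 genes were lower in cycling than in other Cd3e barcodes of aged-GA mice. The cause of these shifts was not tested. Of 90 ratios of named genes, 83 stayed past 1 on the log2 scale under every alternative run. Between aged-GA and aged members, Sfn (0.55) and Vpreb3 (0.89) fell inside it with the mean of CPM. Between the Cd3e members, Avl9 (0.91) did so with all 3 genes, and Satb1 (0.93) and AC149090.1 (0.84) with less than 10% hemoglobin UMIs. Lyz2 (-0.96) did so in cycling against other aged Cd3e barcodes with the mean of CPM.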
